A study of Mus musculus with 49 samples.

Results

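The cytosolic ribosomal protein genes encode the proteins of the large and the small ribosomal subunit, and they are described here across 49 frontal cortex libraries from mice on a high fat diet. Members were the genes whose symbols have the form Rpl or Rps with a number, together with Rpsa, Rplp0, Rplp1, Rplp2 and a few named paralogues. Pseudogenes and the Rps6 kinases were left out, and a mean log2 value of at least 5 over the libraries was required. Of 24495 genes in the table, 84 carried such a symbol and 79 of these were members, 46 of the large subunit and 33 of the small subunit. The rule uses names and the mean over all libraries, not a difference between groups.

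Total RNA of the frontal cortex was sequenced as mRNA libraries, and each library belongs to 1 of 5 groups that all share the high fat diet. Wild-type mice (WT) were fed this diet for 2 months (2MHF, 9 libraries) or 4 months (4MHFW, 10 libraries), and amylin knockout mice, labelled AKO, for 4 months (4MHFA, 10 libraries). Mice conditional for human amylin were fed it for 4 months and then injected with vehicle (CreVE, 10 libraries) or tamoxifen (CreTM, 10 libraries), with brains collected 2 months after injection. Amylin is a peptide hormone that pancreatic beta cells secrete with insulin, and tamoxifen is the drug that activates inducible forms of the Cre recombinase. The labels give no age, sex, strain, batch, Cre promoter or group on a normal diet. Diet time and age therefore cannot be told apart, and the transgenic groups differ from 4MHFW in transgene, injection and time to collection together. The labels do not say that the libraries of a group are separate animals, so p-values measure only the spread between these libraries.

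Recovered reads ranged from 29.2 M to 75.6 M per library (M for mega, the SI prefix), with a median of 42.0 M. Iapp, the gene of mouse amylin, had 36 to 116 reads in each of the 10 libraries labelled AKO (596 in all) and 0 reads in every 4MHFW, 2MHF and CreTM library, with 1 read in 1 CreVE library. These reads go against a plain reading of the label, and they do not show whether amylin was made. Those samples are therefore called the libraries labelled AKO. Libraries treated as standing apart numbered 3. The summed frontal cortex layer markers were at a mean log2 of 9.37 in CreVE replicate 3 and 9.38 in CreTM replicate 9, against group means of 10.67 to 10.88, and the member genes of 2MHF replicate 37 were the highest of its group. Some results that rest on these libraries are given with and without them. Replicate 37 of 2MHF was set apart by the member values themselves, so results without it are no independent check on those values. Correlations with the member mean are over all 49 libraries unless a sentence says otherwise.

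Each ribosome carries 1 copy of nearly every ribosomal protein, and cells keep the proteins in proportion by producing them together and degrading those that are not built in. Vertebrate ribosomal protein mRNAs start with a C followed by a run of pyrimidines, the 5′ terminal oligopyrimidine (TOP) motif, through which the mTORC1 kinase and the RNA-binding protein Larp1 regulate their translation. In neurons, ribosomes and ribosomal protein mRNAs are found in dendrites and axons as well as in the cell body.

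Pyrimidine runs were counted in the genome around the annotated start sites, and windows are shown for members that the results turn on. A run in such a window need not lie at the first bases of the mRNA. RefSeq (GRCm38.p6) gave a promoter for 59 of the 79 members. In the 30 bases around the annotated start (15 on each side, on the gene's strand), 27 of 59 members (45.8%) had an unbroken run of at least 8 C or T, against 13.9% of all 27025 genes with a promoter in the table, and 3 members (5.08%) had such a run of A or G, against 15.3% of all. Each window is written 5′ to 3′, and capitals mark the pyrimidine run.
Rps6, chr4:86857353-86857382, minus strand: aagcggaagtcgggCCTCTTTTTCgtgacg
Rps18, chr17:33955651-33955680, minus strand: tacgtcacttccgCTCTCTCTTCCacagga
Rpl35, chr2:39005117-39005146, minus strand: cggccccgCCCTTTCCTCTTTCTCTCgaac
Rpl4, chr9:64173372-64173401, plus strand: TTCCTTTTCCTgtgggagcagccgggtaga
Rpl7a, chr2:26910792-26910821, plus strand: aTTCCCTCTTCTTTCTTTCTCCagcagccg
Rpl22l1, chr3:28805493-28805522, plus strand: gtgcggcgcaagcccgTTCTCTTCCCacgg
Rps27, chr3:90213634-90213663, minus strand: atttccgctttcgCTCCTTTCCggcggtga
Rps27l, chr9:66946071-66946100, plus strand: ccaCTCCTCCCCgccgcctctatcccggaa
Rpl34, chr3:130730323-130730352, minus strand: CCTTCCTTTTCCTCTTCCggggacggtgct
Members without a run in this window are shown for contrast.
Rps3a1, chr3:86142654-86142683, minus strand: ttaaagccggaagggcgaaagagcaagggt
Rpl10, chrX:74270801-74270830, plus strand: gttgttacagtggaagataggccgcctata
Rpl7l1, chr17:46782642-46782671, minus strand: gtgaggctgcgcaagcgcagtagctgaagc
The annotated start follows the first 15 bases of each window, and 1 annotated start is shown for each gene. The position of the run differs between members, and in Rpl4 and Rps27l it ends before the annotated start. Some genes have several annotated starts, and in all these counts, over members and over all genes alike, a gene was counted if the window or promoter of any start held the run or motif. A missing run says only that these letters are not in these windows.

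Other short motifs were counted in the 300-base promoters on both strands. CCGGAAG, the core of an ETS-type site, was found in 24 of 59 members (40.7%) and 9.93% of all genes. GGGCGG, a GC box, was found in 38 members (64.4%) and 38.2% of all genes. TATAAA was found in 7 members (11.9%) and 15.7% of all genes. The members thus had the pyrimidine run, the ETS core and the GC box at higher shares than all genes, and a match describes letters and not a bound site.

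Most members were among the abundant mRNAs of the tissue. Together they took 1.31% to 1.98% of the reads of a library, with a median of 1.51%, and 75 of 79 had a mean log2 value of at least 11. Rpl3, a protein near the peptidyl transferase centre of the large subunit, had the highest value with 14.55. The 4 members under 11 were Rps27 (5.09), Rpl34 (5.54), Rps27l (8.63) and Rps4l (9.30), and Rpl7l1 came next with 11.08.

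The floor of 5 separated the names as follows. Just inside it were Rps27 and Rpl34. Just outside were Rpl3l at 3.53 (622 reads in all 49 libraries), the paralogue of Rpl3 known from muscle, and Rpl30 at 2.84 (372 reads). Rpl39l was at 0.78 (70 reads), Rpl10l at 0.07 (4 reads) and Rpl26 at 0 reads in every library. Rpl10l and Rpl39l are paralogues known from testis, whereas Rpl26, Rpl30, Rpl34 and Rps27 encode core proteins of the ribosome.

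Sequence shared with other genes was measured beside these low values. Of the 50-base windows of a member's transcript, a median of 55.0% over 78 members also occurred in a transcript of another gene, and 46 members were above 50%. Rps27 was at 98.6%, Rpl30 at 76.4%, Rpl26 at 71.3% and Rpl34 at 50.6%. Rpl35 (95.1%), Rpl5 (93.8%), Rpl9 (93.3%), Rpl10 (92.1%) and Rps12 (90.1%) shared as much and had mean log2 values above 11, while Rps3 (2.96%) shared almost nothing. The sources used here do not give how reads that match several genes were counted, and its part in any level was not tested. The levels of Rps27, Rpl34, Rpl30 and Rpl26 are therefore uncertain, as are comparisons of level between members with much shared sequence. Whether reads were counted by strand is likewise not given.

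Levels between genes were compared only per length, as normalised reads per kilobase of the principal transcript, for the 78 members with a length. The median was 9981. The highest were Rplp1, a stalk protein, at 34512 ± 2902 (SD over 49 libraries), Rps15 at 26398 ± 2173, Rps14 at 24036 ± 2925, Rpl9 at 20037 ± 2035 and Rps21 at 17975 ± 1807. Rps15 and Rps14, and likewise Rpl9 and Rps21, lie about as far apart as their SDs. The lowest were Rpl34 at 96.7 ± 21.2, Rps27 at 99.8 ± 28.8, Rps27l at 798 ± 120, Rpl7l1 at 834 ± 59.1 and Rps20 at 1211 ± 118. Rpl34 and Rps27 lie closer together than their SDs, and so do Rps27l and Rpl7l1. All these SDs are over the same 49 libraries, across which most members move together. They therefore do not measure how certain the order of any pair is.

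Without Rps27, Rpl34 and the low paralogues, the highest of 73 members was 28.5 times the lowest per kilobase. This spread depends on the transcript chosen: Rps20 and Rps15a (1280 ± 92.7) have principal transcripts of 3706 and 5130 bases, and the median transcript of the members is 774.5 bases. With the union of exons as length the median level was 4031, and 5 of the 10 highest members were shared with the order above.

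**Figure D1:**
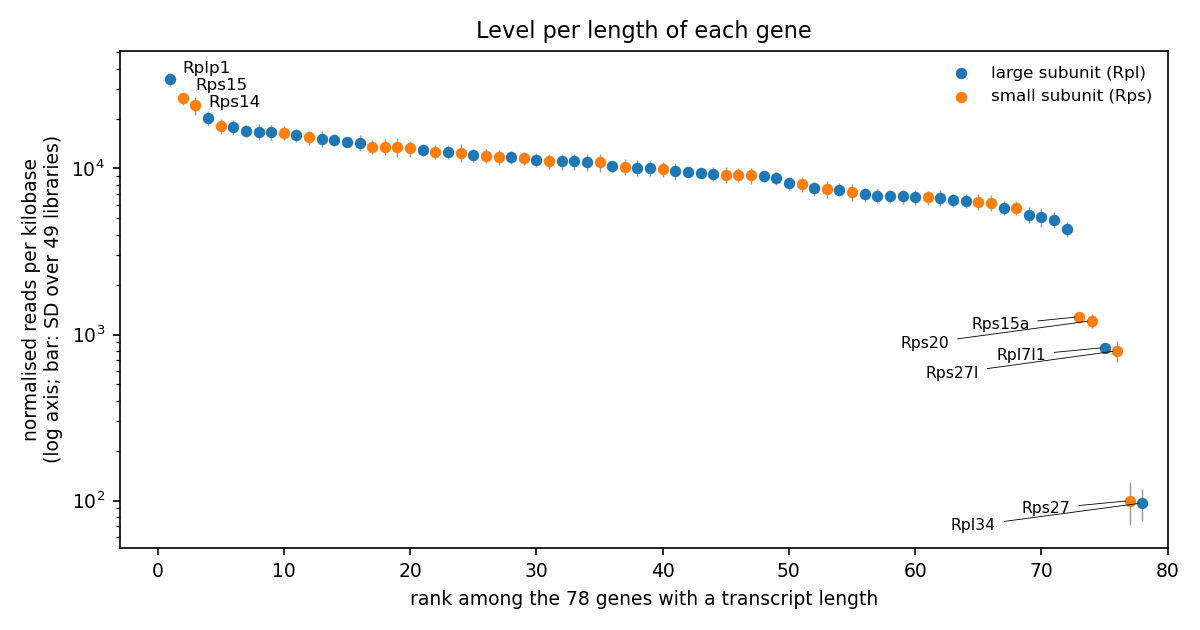
Level of each of the 78 members with a known length, in normalised reads per kilobase of principal transcript on a log axis, ordered by level, with large and small subunit members coloured apart. Most members lie within the main band around the median of 9981, Rplp1 is highest at 34512, and Rpl34 and Rps27 lie far below at 96.7 and 99.8.

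Paralogue pairs differed in level. Rpl7l1, which acts in assembly of the large subunit in the nucleolus, was at 834 normalised reads per kilobase against 9312 for Rpl7. Rpl22l1 was at 5118 against 9569 for Rpl22, its paralogue, a gap that rests on the transcript chosen, since with the union of exons as length they were at 1420 and 1558. Rps27l, a target of p53, was at 798, above its counterpart Rps27 at 99.8, a pair whose order is uncertain for the reason of shared sequence given above.

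The members moved together from library to library. After each group's mean was removed, a member's correlation with the mean of the other 78 over 49 libraries had a median of 0.91, and 69 of 79 were above 0.8. These correlations describe libraries that share depth and composition. Without the 3 libraries that stood apart, 53 members stayed above 0.8. Over all 49 libraries, the first principal component of the members held 76.5% of their variance.

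Rpl13, Rps27a, Rps3a1 and Rps18 were among those that followed the mean most closely (r of 0.96). Rpl34 (0.23), Rps27 (0.29), Rpl7l1 (0.30), Rps4l (0.46) and Rps27l (0.64) followed it least. Except for Rpl7l1, these are the members with the fewest reads, and the part of counting error was not tested. Rps4l had 382 to 1145 reads in a library and Rps27l 248 to 758. Rpl7l1 had a small spread of its own, with an SD of 0.09 within groups on the log2 scale.

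The SD within groups had a median of 0.12 over the members on the log2 scale. It was smallest for Rpl4 (0.07), a protein that lines the exit tunnel, followed by Rpl29, Rps15a, Rpl22 and Rpl7l1, which lay between 0.08 and 0.09. It was largest for Rps27 (0.36), Rpl34 (0.29), Rps4l (0.24), Rps27l (0.20) and Rps12 (0.17). A difference of a few hundredths on this scale is thus smaller than the usual distance between libraries of a group.

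**Figure D2:**
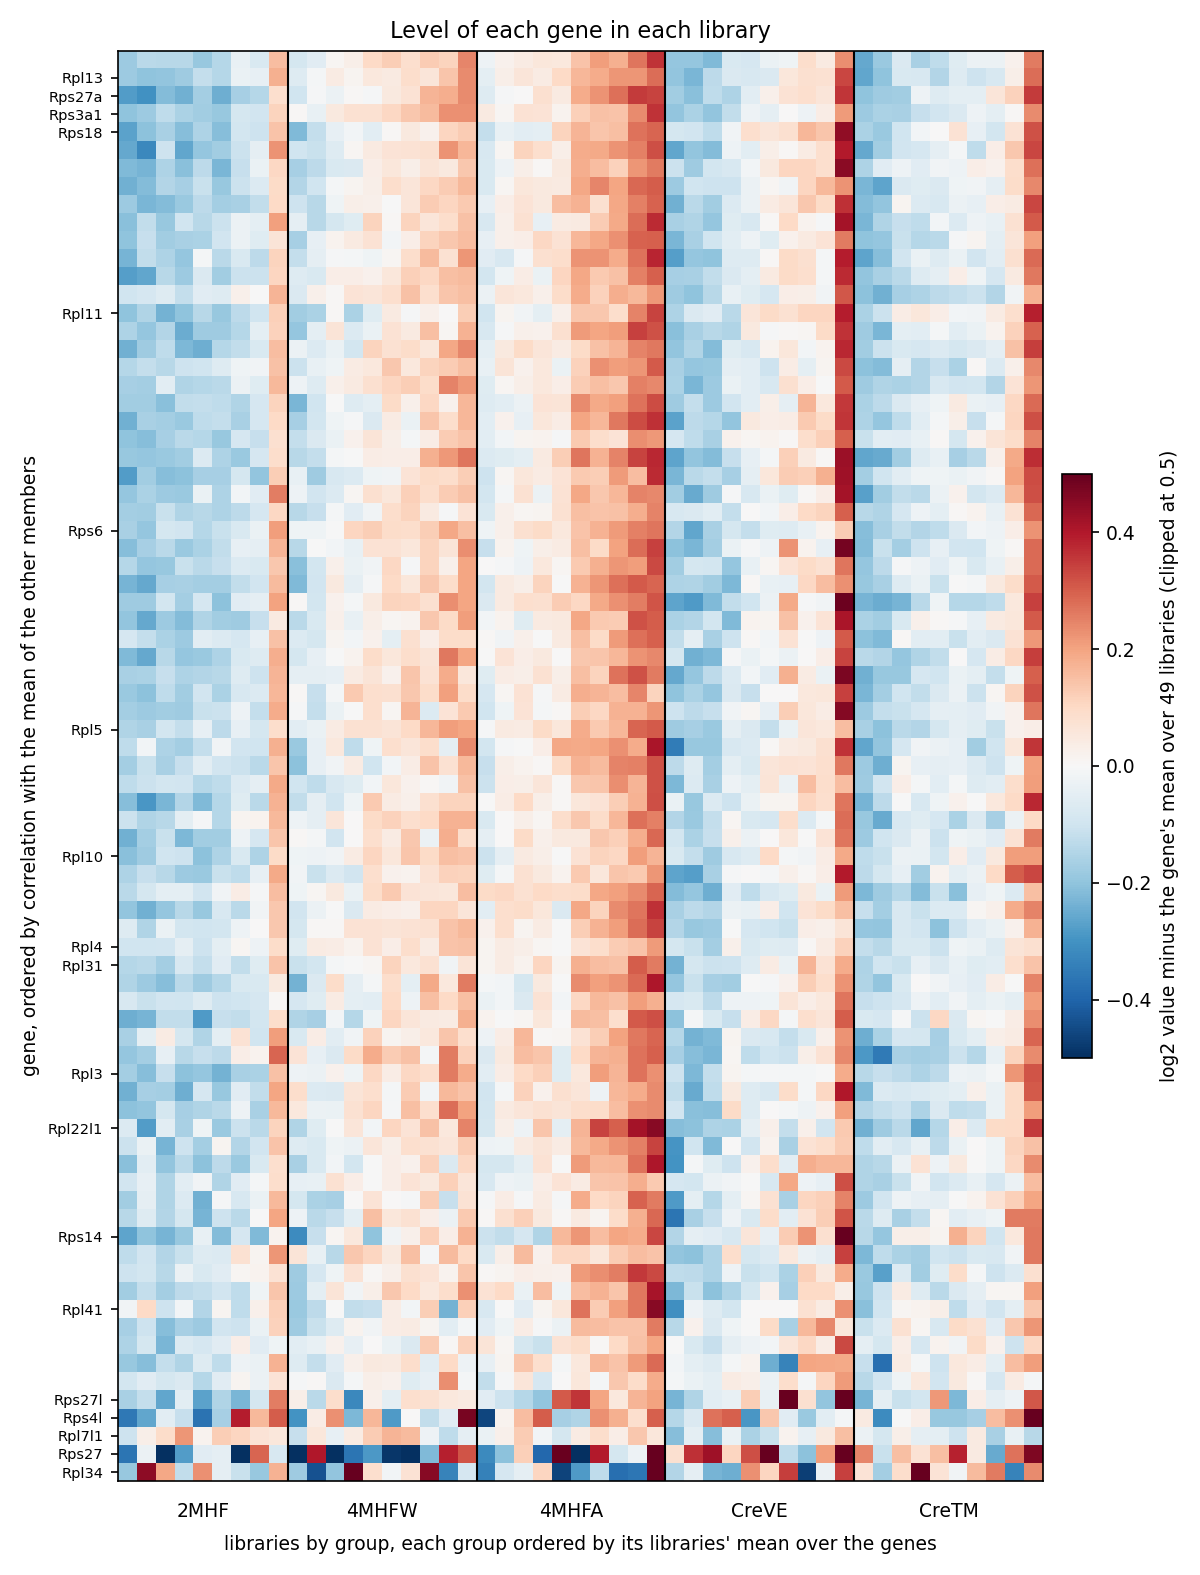
Deviation of each of the 79 members from its mean over all 49 libraries, in log2 units, with values clipped at 0.5. Libraries are ordered by their mean within each group and members by their correlation with the other members, with some members named at the side. Single libraries such as 2MHF replicate 37, CreVE replicate 3 and CreTM replicate 9 are high for most members at once, and most 2MHF libraries are low.

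Of 13923 other genes, those whose group-centred values were most like the member mean were Pfdn5 (r = 0.93), a subunit of the chaperone prefoldin, and Btf3 (0.91), which with Naca forms the complex that binds nascent chains at the ribosome. Next came, among others, Fau, Naca, Uqcrh, Eef1a1, Use1, Cox7c and Atp5o (0.88 for the last). Fau encodes a further ribosomal protein as a fusion with a ubiquitin-like domain, Eef1a1 is an elongation factor, and Uqcrh, Cox7c and Atp5o belong to oxidative phosphorylation. The most negative were Pi4ka (-0.91), a lipid kinase, Atp2a2 (-0.90), a calcium pump, Lrrc8b (-0.88), Atrn (-0.87) and Mapk8ip3 (-0.87). All correlations are over the same 49 libraries.

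Several library values moved with the member mean within groups, each over 49 libraries. The mean of 491 short mRNAs (under 1000 bases) minus that of 3571 long mRNAs (over 4000 bases) correlated at r = 0.80 (rho 0.77, and 0.78 without the 2 farthest libraries). The 6 cortex layer markers gave r = -0.77 (rho -0.67, and -0.63 without the 2 farthest), the astrocyte markers 0.57 (rho 0.51, and 0.49), the olfactory bulb markers 0.41 (rho 0.30, and 0.29) and sequencing depth -0.36 (rho -0.38, and -0.32). Libraries with higher ribosomal protein values thus had more of the short mRNAs and less of the cortex layer markers. Members are short themselves, with a median of 774.5 bases against 2535 over 19919 genes. The part of mRNA length and of tissue composition in the differences below was not tested beyond the fits with these values as covariates.

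**Figure D3:**
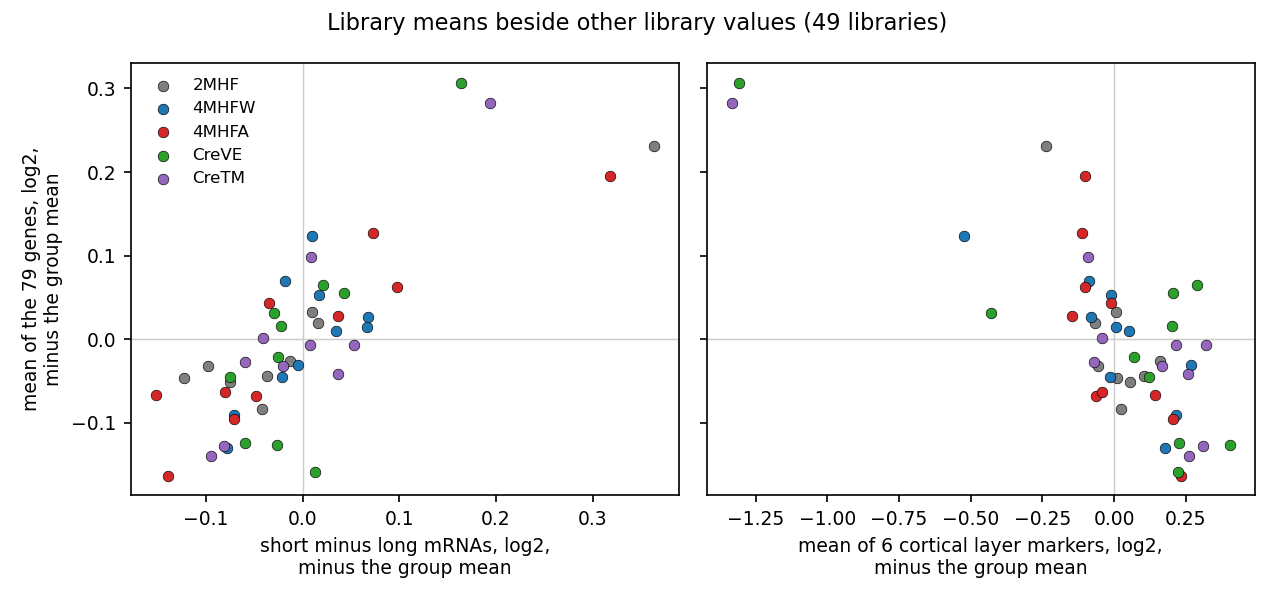
Member mean of each library (log2) against 2 other library values, the short minus long mRNA difference and the cortex layer marker mean (both log2), all with the group mean subtracted and libraries coloured by group. The member mean is higher where the short minus long difference is higher (group-centred r = 0.80) and where the cortex markers are lower (r = -0.77), and CreVE replicate 3 and CreTM replicate 9 lie far out.

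The member mean differed between the groups as follows. It was 12.45 to 12.76 in 2MHF (lowest and highest, median 12.50), 12.52 to 12.78 in 4MHFW (median 12.66) and 12.56 to 12.92 in the libraries labelled AKO (median 12.71). In CreVE it was 12.46 to 12.92 (median 12.61) and in CreTM 12.46 to 12.88 (median 12.58). The ranges of all groups overlap, 2MHF has the lowest median and the libraries labelled AKO the highest. As a share of reads, the members held 1.41% ± 0.13 (SD, n = 9) in 2MHF, 1.57% ± 0.11 (n = 10) in 4MHFW, 1.67% ± 0.15 (n = 10) in the libraries labelled AKO, 1.52% ± 0.19 (n = 10) in CreVE and 1.51% ± 0.18 (n = 10) in CreTM. In bulk tissue, fewer cells of a type and less RNA per cell cannot be told apart. Both subunits had the same order: the large subunit mean was 12.65, 12.76, 12.83, 12.71 and 12.70 and the small subunit mean 12.37, 12.50, 12.58, 12.47 and 12.45 in 2MHF, 4MHFW, libraries labelled AKO, CreVE and CreTM.

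**Figure D4:**
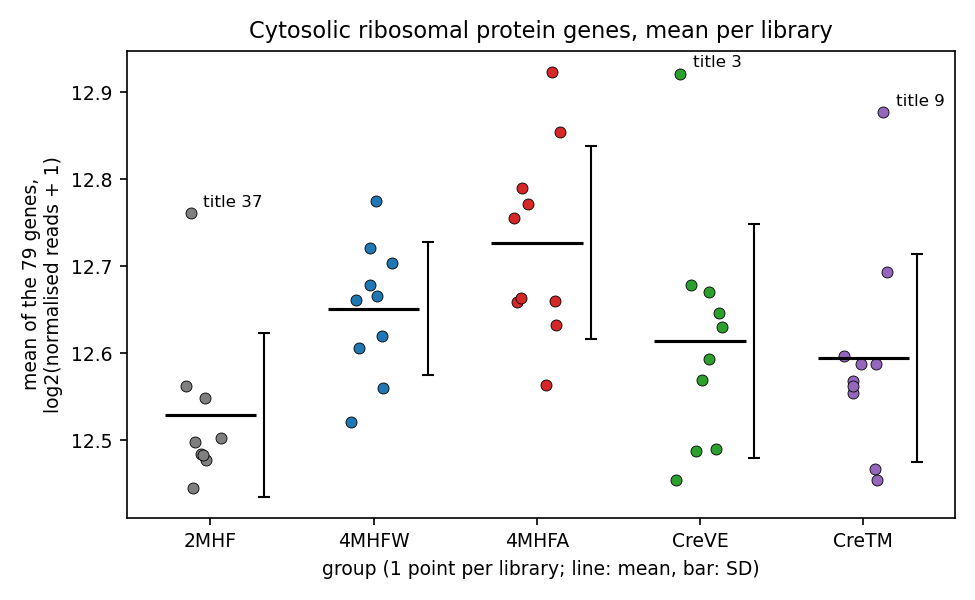
Mean log2 value of the 79 members in each library, by group, with a line for the mean and a bar for the SD of the group and 3 libraries labelled by title number. The 2MHF libraries have the lowest group mean and overlap every other group, with replicate 37 (12.76) above the rest of its group, and CreVE replicate 3 (12.92) stands above its group.

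A test over all 5 groups at once (limma, Benjamini-Hochberg over all genes) found a difference at adjusted p 0.05 for 59 of 79 members, beside 23.2% of the 15856 genes tested. The smallest p-values were those of Rpl5, Rpl23, Rps3a1, Rps6 and Rpl6. Without the 3 libraries that stood apart the count was 74. Of these, 2MHF replicate 37 was set apart by its member values, so the higher count is no independent sign of a difference. Rpl28, Rpl29, Rpl41, Rplp1, Rplp2, Rps27 and Rpl34 were among the 20 that did not pass.

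The comparison of WT mice after 4 and 2 months addresses the time on the diet, and ribosomal protein mRNAs were higher after 4 months. Of 79 members 26 rose and 0 fell at adjusted p 0.05 (limma), beside 4.60% of 15159 genes that rose and 4.18% that fell. The value was higher for 75 members against 50.9% of all genes. The median difference was 0.13 on the log2 scale, and 0.00 over all genes tested. By subunit, 14 of 46 large and 12 of 33 small subunit members rose.

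Rps3a1 (gene ID 20091, chromosome 3, 86137940 to 86142702 in GENCODE M21 on GRCm38), a small subunit protein, ranged from 13.48 to 13.79 in 2MHF (median 13.53) and from 13.65 to 13.91 in 4MHFW (median 13.78). All 9 libraries of 2MHF but replicate 37 lay under the lowest of 4MHFW. It rose by 0.23 ± 0.04 (SE) on the log2 scale, 1.17-fold (adjusted p = 0.0044). Rps27a (78294, chromosome 11, 29545846 to 29548109), which is made as a fusion with ubiquitin, ranged from 12.64 to 13.03 (median 12.73) and from 12.85 to 13.18 (median 12.97). The same library was the only 2MHF library inside the 4MHFW range, and the gene rose by 0.24 ± 0.05, 1.18-fold (adjusted p = 0.0067).

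Rpl10 (110954, chromosome X, 74270812 to 74273135), which joins the large subunit late in assembly, ranged from 12.79 to 13.10 in 2MHF (median 12.85) and from 12.98 to 13.15 in 4MHFW (median 13.08), a rise of 0.19 (adjusted p = 0.0083). Rpl3 (27367, chromosome 15, 80077791 to 80091868) ranged from 14.31 to 14.69 (median 14.38) and from 14.52 to 14.80 (median 14.61), a rise of 0.22 (adjusted p = 0.010). Rps6 (20104, chromosome 4, 86854660 to 86857412), the substrate of the S6 kinases, ranged from 12.78 to 13.17 (median 12.87) and from 12.94 to 13.16 (median 13.07), a rise of 0.16. In each of these genes 2MHF replicate 37 was the highest of its group. It lay inside the 4MHFW range for Rpl10 and Rpl3 and just above that range for Rps6.

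The other genes that rose included Rps25, Rpl5, Rps3, Rps4x, Rpl35, Rpl21, Rpl7, Rpl14, Rpl9, Rpl8, Rpl13, Rps12, Rpl27, Rps7, Rps9, Rpl23a and Rpl37a, by 0.14 to 0.20. No member's 2 groups were fully apart. Rpl7l1 (-0.05), Rps27 (-0.05), Rpl41 (-0.04) and Rpl34 (-0.03) had lower values after 4 months and did not pass. Rpl22l1 had a difference of 0.15 that did not pass.

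This count moved with single libraries. It was 66 without 2MHF replicate 37, which was set apart by its member values, and 42 without 4MHFW replicate 21. It was 10 without 2MHF replicate 32 or without 4MHFW replicate 12, 11 without 2MHF replicate 33, 35 or 36, and 16 without 4MHFW replicate 13 or 23. The median difference stayed between 0.11 and 0.16 whichever library was left out.

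The libraries of 4MHFW carry title numbers from 11 to 15 and from 21 to 25, and the count was 14 with the first 5 and 0 with the other 5. With all 49 libraries in 1 model 9 members passed. With the cortex layer markers as a covariate 1 member passed, with the olfactory bulb markers 7, and with the short minus long mRNA difference 27. The mean of the cortex layer markers (Cux2, Rorb, Fezf2 and Tbr1 among them) ran from 10.64 to 11.04 in 2MHF and from 10.17 to 10.96 in 4MHFW. None of the 6 passed, and 5 had lower values after 4 months (median -0.23).

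Markers of several other cell types were higher after 4 months, and most neuron markers were lower. Of the astrocyte markers 4 of 6 rose (median 0.22), and their mean ran from 13.06 to 13.35 in 2MHF and from 13.27 to 13.72 in 4MHFW. Of the microglia markers 4 of 6 rose (median 0.21), with group averages of 10.89 in 2MHF and 11.08 in 4MHFW. Of the endothelial markers 2 of 5 rose (median 0.30), with means from 9.66 to 10.14 and from 9.96 to 10.41. The oligodendrocyte markers had higher values in 6 of 6, none past the threshold. So did the 5 olfactory bulb markers (median 1.07) and the 5 striatum markers (median 0.55), again none past it. Of the neuron markers 4 of 6 had lower values and 2 higher, and 1 fell past the threshold (median -0.10). The short minus long difference was -0.70 on average in 2MHF and -0.65 in 4MHFW. Apart from the covariate fits, the part of these values in the rise of the members was not tested.

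The genes related to ribosomes did not all follow. Of 20 other genes with TOP mRNAs, such as elongation factors, 7 rose and 0 fell, with a median difference of 0.10. Of the 4 core ribosomal protein genes that the naming rule misses, Gnb2l1 rose by 0.17. It encodes Rack1, a kinase scaffold on the small subunit. Of 19 initiation factor genes 5 rose, among them Eif3m (0.19), Eif4a2 (0.13) and Eif2s3x (0.11).

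Of 25 ribosome biogenesis genes, in contrast, 0 rose and 4 fell (median -0.06), with Cirh1a at -0.20, Bysl at -0.17 and Nop58 at -0.16, all factors that act on pre-ribosomes in the nucleolus. None of 14 RNA polymerase I genes passed. Of 20 mTORC1 pathway genes 1 fell, Larp1 by 0.15. Of 77 mitochondrial ribosomal protein genes 1 fell and 0 rose (median 0.03), of 49 nuclear oxidative phosphorylation genes 1 fell, Atp5g1 (median 0.03), and of 20 proteasome genes 0 passed (median 0.00). The median of the cytosolic members, 0.13, was above that of each of these lists. The 491 short mRNAs had a median of 0.04 and the 3571 long mRNAs of -0.02. These are medians side by side, and no test between lists was made.

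**Figure D5:**
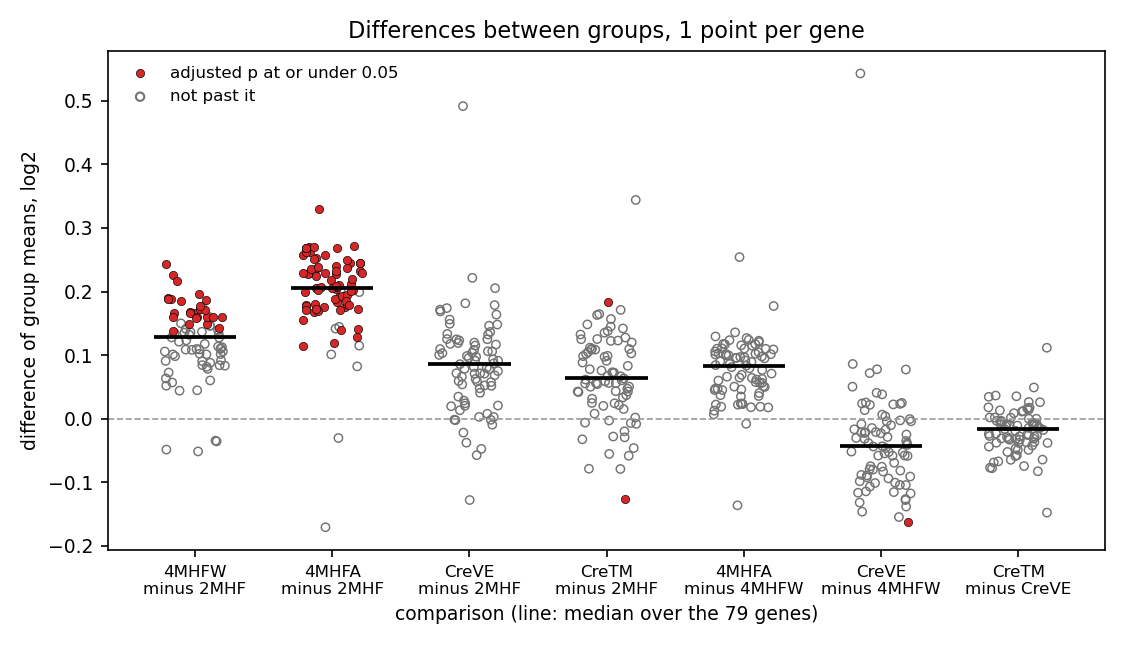
Difference of each of the 79 members in 7 comparisons, in log2 units, with members past adjusted p 0.05 marked. Most members lie above 0 in the comparisons of 4MHFW and the libraries labelled AKO with 2MHF (medians 0.13 and 0.21). The same holds for CreVE and CreTM with 2MHF, at smaller medians (0.09 and 0.06). Members lie around 0 for CreTM against CreVE (median -0.02).

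The libraries labelled AKO were compared with WT at the same 4 months, which addresses the amylin genotype. No member passed: 0 rose and 0 fell, beside 0.283% of 15185 genes that rose and 0.507% that fell, and limma-voom on recovered reads also gave 0. The value was higher in the libraries labelled AKO for 77 of 79 members, against 52.3% of all genes, and 24 had an unadjusted p under 0.05, all higher, where 6.91% of all genes were higher and 7.07% lower at such a p. The median difference was 0.08, against 0.01 over all genes. The smallest adjusted p was 0.186.

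That value belonged to Rpl31, a protein at the end of the exit tunnel, which ranged from 12.88 to 13.10 in 4MHFW (median 12.99) and from 13.01 to 13.29 in the libraries labelled AKO (median 13.12). The groups overlapped, and the difference was 0.12 ± 0.04 (SE). Rpl41, a very short protein, ranged from 12.90 to 13.26 (median 13.07) and from 13.05 to 13.59 (median 13.22), with a difference of 0.18 (adjusted p = 0.189). Rpl38 (0.13), Rpl23 (0.09) and Rps15 (0.11) came next. Rpl34 (-0.14) and Rpl10 (-0.01) had lower values.

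For the 75 members with a mean log2 of at least 11, the 95% intervals of the differences lay between -0.09 (Rpl10) and 0.30 (Rpl41). The median difference was 0.06 to 0.10 with any 1 library left out and 0.02 with the short minus long difference as a covariate. With the cortex layer markers as a covariate 15 members passed, and with either other covariate 0. The layer markers averaged 10.69 in 4MHFW (10.17 to 10.96) and 10.76 in the libraries labelled AKO (10.61 to 10.99), and the short minus long difference -0.65 (-0.73 to -0.58) and -0.57 (-0.72 to -0.25). Of the oligodendrocyte markers 2 of 6 fell, and no marker of astrocytes, microglia or the cortex layers passed. Leaving out any 1 library gave 0 calls. None of the 20 other TOP genes and 25 ribosome biogenesis genes passed. Of 12 immediate early genes 10 fell and 0 rose (median -0.96), and their part in the member values was not tested.

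The libraries labelled AKO were also set against 2MHF, a comparison in which genotype and diet time differ together and which shares the 2MHF libraries with the comparison of WT mice. Of 79 members 70 rose and 0 fell, beside 8.39% of 15300 genes that rose and 8.59% that fell. The median difference was 0.21, and 41 of 46 large and 29 of 33 small subunit members rose. Rps27a ranged from 12.64 to 13.03 in 2MHF (median 12.73) and from 12.88 to 13.30 in the libraries labelled AKO (median 13.08), and it rose by 0.33 ± 0.06 (SE), 1.26-fold (adjusted p = 0.00101). The ranges overlapped in part.

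Rpl17 (0.27), Rpl35 (0.27), Rps25 (0.27), Rpl9 (0.26), Rps3a1 (0.24) and Rps7 (0.24) followed among those with large rises. All 4 stalk members (Rplp0, Rplp1, Rplp2 and Rpl12) and the 3 exit tunnel members (Rpl4, Rpl17 and Rpl39) rose. So did both proteins that bind 5S rRNA (Rpl5 and Rpl11) and 10 of 11 tested genes whose human counterparts are mutated in Diamond-Blackfan anaemia. These shares are near that of all members, of which 70 of 79 rose. The 9 that did not pass were Rps26 (0.14), Rpl28, Rpl29 (0.08), Rpl41 (0.14), Rps27 (0.20), Rps27l (0.20), Rps4l (0.10), Rpl34 (-0.17) and Rpl7l1 (-0.03). The count was 64 to 73 with any 1 library left out, 51 with the short minus long difference as a covariate and 32 with the cortex layer markers.

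Beside them, 11 of 20 other TOP genes rose (median 0.13), and 3 of the 4 core genes outside the naming rule rose, Fau and Gnb2l1 among them. Of the ribosome biogenesis genes 1 rose and 4 fell, Npm1 by 0.13 up and Bysl by -0.21, and of the mTORC1 genes 5 fell, among them Eif4g1 (-0.18), Tsc2 (-0.16) and Larp1 (-0.13). Of 49 oxidative phosphorylation genes 6 rose (median 0.10), and of 77 mitochondrial ribosomal protein genes 4 rose (median 0.06). The short mRNAs had a median of 0.09 and the long ones of -0.05. Of the microglia markers 5 of 6 rose (median 0.32), and their mean in the libraries labelled AKO (11.03 to 11.21) was above that of every 2MHF library (group average 10.89). Of the astrocyte markers 3 of 6 rose (median 0.18), and of the cortex layer markers 2 of 6 fell, Tbr1 among them (median -0.20). Of the neuron markers 3 of 6 fell (median -0.16), and the 5 striatum markers had higher values, none past the threshold (median 0.90). All 12 immediate early genes fell (median -1.15), with means from 10.12 to 11.84 in 2MHF and from 9.42 to 10.24 in the libraries labelled AKO. The part of these values in the rise of the members was not tested.

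The members with and without a pyrimidine run in the window around the start are given side by side, with no test between them. In 4MHFW against 2MHF, 5 of the 27 members with a run rose (median difference 0.11), 11 of the 32 without one (median 0.12) and 10 of the 20 without a promoter in the table (median 0.15). In the libraries labelled AKO against 2MHF the counts were 22 of 27 (median 0.21), 30 of 32 (median 0.20) and 18 of 20 (median 0.22). Of the members whose windows are shown above, Rps3a1 and Rpl10, without a run, and Rps6 and Rpl35, with a run, rose in both comparisons. Rps18, Rpl4, Rpl7a and Rpl22l1, with a run, rose only in the libraries labelled AKO against 2MHF. Rps27, Rps27l and Rpl34, with a run, and Rpl7l1, without a run, rose in neither.

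CreVE was compared with 4MHFW, where transgene, vehicle injection and time to collection differ together. Of 79 members 1 fell and 0 rose, beside 3.61% of 15129 genes that fell and 2.59% that rose. The value was higher for 17 members and lower for 62, where 49.9% of all genes were higher. The median difference was -0.04. It was -0.08 without CreVE replicate 3, -0.02 without CreVE replicate 5 or 10, and 0.02 with the short minus long difference as a covariate, which turns its direction.

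The member that fell was Rps6, at 12.94 to 13.16 in 4MHFW (median 13.07) and 12.71 to 13.09 in CreVE (median 12.89), by 0.16 ± 0.04 (SE) on the log2 scale (fold 0.894, adjusted p = 0.0234). The ranges overlapped. Rpl6 (-0.13, adjusted p = 0.0576), Rps3a1 (-0.15, adjusted p = 0.0627), Rpl5 (-0.14, adjusted p = 0.0825) and Rpl23 (-0.13, adjusted p = 0.104) had lower values and did not pass. Rps27 had a higher value, at 4.12 to 5.49 in 4MHFW and 4.89 to 6.10 in CreVE, a difference of 0.54 ± 0.20 that did not pass (adjusted p = 0.112).

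Here the count was 14 without CreVE replicate 3, and 2 without CreVE replicate 39 or 41 or 4MHFW replicate 11 or 21. It was 0 when values were scaled to the library total and with 4MHFW titles 11 to 15, 4 when values were centred on the median gene or with all 49 libraries in 1 model, and 16 with the cortex layer markers as a covariate. All 6 oligodendrocyte markers fell (median -0.63), with means from 13.43 to 13.72 in 4MHFW and from 12.32 to 13.59 in CreVE, as did 2 of 5 endothelial markers, and their part in the member values was not tested. Of the other TOP genes Eef2, the elongation factor that moves the ribosome along the mRNA, fell. Of the ribosome biogenesis genes Sbds and Ncl fell.

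CreTM was compared with CreVE, which addresses the tamoxifen treatment of the transgenic mice. No member passed, with 0 rising and 0 falling at adjusted p 0.05, beside 0% of 15270 genes in either direction. No member had an unadjusted p under 0.05 either, where 1.73% of all genes were higher and 1.57% lower at such a p, and limma-voom also gave 0 calls. The value was higher in CreTM for 20 members and lower for 59, where 49.4% of all genes were higher, and the median difference was -0.02. The median was 0.02 without CreVE replicate 3 and -0.05 without CreTM replicate 9, so its sign rests on single libraries. It was 0.01 with the short minus long difference as a covariate. The smallest p-values of lower members were those of Rpl29 (-0.06 ± 0.04, SE), Rpl15 (-0.07), Rpl7a (-0.08), Rplp0 (-0.07) and Rps18 (-0.08), and those of higher members Rpl34 (0.11), Rpl36a (0.04), Rpl37 (0.03), Rps28 (0.05) and Rpl22l1 (0.04).

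Rplp0, the base of the stalk and a common reference gene, averaged 13.14 in CreVE and 13.07 in CreTM. For the 75 members with a mean log2 of at least 11 the 95% intervals lay between -0.24 (Rps9) and 0.21 (Rps28). These are the outermost ends over the 75 members. Each member's own interval was narrower, for example -0.09 to 0.07 for Rpl4, and included 0. Each group held 1 library that stood apart, CreVE replicate 3 and CreTM replicate 9, and leaving out any 1 library gave 0 calls.

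The 2 transgenic groups were also set against 2MHF, from which they differ in transgene, injection, diet time and time to collection, using the same 2MHF libraries as above. In CreVE 0 members passed, beside 0.789% of 15214 genes that rose and 1.01% that fell, with a median difference of 0.09. At an unadjusted p under 0.05, 22 members were higher and 1 lower, beside 8.26% and 8.09% of all genes, and without 2MHF replicate 37 the adjusted count was 1. The smallest p-values were those of Rps14 (0.22, adjusted p = 0.104) and Rps18 (0.21, adjusted p = 0.116). In CreTM 1 rose and 1 fell, beside 3.59% of 15326 genes that rose and 4.46% that fell, with a median difference of 0.06. Values were higher than in 2MHF for 70 of 79 members in CreVE, beside 7800 of 15214 genes. In CreTM they were higher for 65 members, beside 7942 of 15326 genes.

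The riser was Rps14 (gene ID 20044), a small subunit protein whose loss is tied to anaemia in the 5q- syndrome. It ranged from 13.53 to 13.82 in 2MHF (median 13.60) and from 13.61 to 14.06 in CreTM (median 13.83), a difference of 0.18 ± 0.06 (adjusted p = 0.0442). Rpl7l1 (66229, chromosome 17, 46773907 to 46782672) ranged from 10.98 to 11.30 (median 11.15) and from 10.92 to 11.13 (median 11.04), and fell by 0.13 ± 0.04 (adjusted p = 0.0473). Both pairs of groups overlapped. The count was 13 without 2MHF replicate 37, 3 without CreTM replicate 44, 2 without CreTM replicate 15, and 0 or 1 without any other library.

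Members with a role of their own are set side by side here, in the order 2MHF, 4MHFW, libraries labelled AKO, CreVE and CreTM, as mean or median log2 values. The stalk, which recruits the translation factors, had medians of 13.12, 13.26, 13.26, 13.10 and 13.09 for Rplp0, of 13.97, 14.05, 14.16, 14.04 and 14.04 for Rplp1 and of 12.20, 12.34, 12.37, 12.27 and 12.25 for Rplp2. Rplp1 and Rplp2 had their highest median in the libraries labelled AKO and their lowest in 2MHF, and Rplp0 had its lowest in CreTM. Rpl5 and Rpl11, which with 5S rRNA can bind Mdm2, differed from each other: Rpl5 had medians of 13.44, 13.61, 13.64, 13.47 and 13.43, and Rpl11 of 12.88, 13.03, 13.09, 13.11 and 13.07. In the transgenic groups Rpl5 thus had medians near that of 2MHF, and Rpl11 had medians slightly above that of 4MHFW. The difference between the genes was not tested.

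The paralogues are given in the same order. Rpl22 had means of 12.06, 12.15, 12.19, 12.17 and 12.14. Rpl22l1 (chromosome 3, 28805436 to 28807424) had medians of 11.35, 11.51, 11.61, 11.35 and 11.35, with single libraries from 11.18 in 2MHF to 11.91 in the libraries labelled AKO. Rpl7l1 had medians of 11.15, 11.09, 11.12, 11.04 and 11.04, highest in 2MHF, the group where most other members were lowest. Rps27l had means of 8.51, 8.62, 8.71, 8.69 and 8.61, and Rps4l of 9.25, 9.29, 9.35, 9.29 and 9.31.

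Rps27 (57294, chromosome 3, 90212522 to 90213651) and Rpl34 (68436, chromosome 3, 130726831 to 130730398) had medians of 5.01, 4.77, 5.03, 5.36 and 5.24 and of 5.49, 5.49, 5.33, 5.50 and 5.62. At these values their ranges overlapped in all 5 groups, and neither passed in any comparison. Among genes that share sequence with them, Rps27rt and Rpl34-ps1 had 0 reads in all libraries.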

How the data were processed

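Per the labels, total RNA from frontal cortex was checked for quality by spectrophotometry and electrophoresis, and libraries were made with a stranded TruSeq mRNA kit. The authors deposited log2 values of all libraries in 1 table. The sources used here name no aligner, counter, annotation or normalization. From the values, each is log2 of normalised reads plus 1: 99.92% to 100.0% of the low values (up to 200 reads) were whole reads within 0.1. Columns of per-sample values not matched to a sample (1) and genes that were not whole reads (7, no member) were not used.

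Groups were taken from the titles. Differences were tested with limma 3.58.1 (trend, robust) in R 4.3.3 on the deposited log2 values, with only the groups compared in a fit, two-sided, with Benjamini-Hochberg adjustment over all genes tested and a threshold of 0.05. The planned tests assumed counts and the deposited unit is log2, so limma replaced a count model. To be tested, a gene needed 15 reads in total and, in a number of libraries equal to the smaller group, a value worth at least 10 reads at median depth. All 79 members passed this filter in each comparison. Differences on this scale understate the change of genes with few reads. Comparisons that use 4MHFW or 2MHF share those libraries and are not independent. Fits were tested on simulated data. Tables were made in Python 3.11.15.

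Members and gene lists were chosen with earlier results of these data known. Genes named are all members past the threshold in a comparison or, below 5, the 5 smallest p-values in each direction, the 5 extremes of each description, members of the role lists, and up to 3 genes of each other list; for the comparisons with 2MHF of the libraries labelled AKO the 70 are given by examples. A few genes that this rule names are not reported here. Alternatives were no filter, other scalings, log2 of normalised reads plus 10, limma-voom on recovered reads, all groups in a model, libraries left out, splits by title number and, added after seeing the data, covariates and the comparisons of other groups with 2MHF. The closest 2 libraries of any group differed by a chi-square of 6.61 per gene, above sampling noise, so none was treated as a duplicate. Lengths are of GENCODE M21 transcripts, and positions are GRCm38; the build of the deposited values is not stated in those sources.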

Additional observations from a re-analysis of the deposited data

Results flagged for a closer look

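By the gap between the extreme library and its nearest neighbour relative to the range of its group (Dixon's criterion, which chance meets in about 1 in 20 groups), 2 libraries stood out in the member mean. CreVE replicate 3 was at 12.92 on the log2 scale and 2MHF replicate 37 at 12.76. Gene by gene, 2MHF replicate 37 met the criterion in 47 of 79 members, CreVE replicate 3 in 21, CreTM replicate 9 in 20, and 4MHFA replicate 6 and 4MHFW replicate 12 in 1 each.

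Beside these values, the cortex layer markers were at 9.37 in CreVE replicate 3, 9.38 in CreTM replicate 9 and 10.64 in 2MHF replicate 37, and the olfactory bulb markers at 12.86 in CreVE replicate 3 and 11.37 in CreTM replicate 9. The short minus long mRNA difference was -0.53, -0.52 and -0.33 in CreVE replicate 3, CreTM replicate 9 and 2MHF replicate 37, above each group's mean. It was higher still in 4MHFA replicate 6 (-0.25), whose member mean of 12.92 did not meet the criterion in its group.

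Of the low or paralogous members, Rpl34 was at 6.22 in 4MHFA replicate 6 and Rps27l at 8.88 in 2MHF replicate 37, each the highest of its group by the same criterion.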

How the results depend on the processing

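Under the alternatives run, the median difference of the members was 0.05 to 0.15 for 4MHFW against 2MHF, -0.01 to 0.11 for the libraries labelled AKO against 4MHFW, -0.07 to 0.02 for CreVE against 4MHFW and -0.02 to 0.01 for CreTM against CreVE. Its sign changed in the last 3, each time within 1 SD between libraries. That SD is larger than these main differences themselves (0.08, -0.04 and -0.02), so a shift within it does not show that they held. For CreTM against CreVE 0 members passed under all 11 alternatives and all 20 fits with a library left out. Counts depended on the setting, and the cause was not tested.

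For 4MHFW against 2MHF (26 members), 9 passed with all 49 libraries in 1 model, 7 and 1 with the olfactory bulb and cortex layer covariates, 14 with 4MHFW titles 11 to 15, 0 with titles 21 to 25, and 10 to 66 with a library left out. For the libraries labelled AKO against 4MHFW (0), 15 passed with the cortex layer covariate, and 0 with any library left out. For CreVE against 4MHFW (1), 0 passed when scaled to the library total or with titles 11 to 15, 4 when centred or with all libraries in 1 model, 2, 3 and 16 with the short minus long, olfactory bulb and cortex layer covariates, and 1 to 14 with a library left out. Against 2MHF, the cortex layer covariate gave 32 for the libraries labelled AKO (70), 1 for CreVE (0) and 6 for CreTM (2), the short minus long covariate 5 for CreVE and 23 for CreTM, and the olfactory bulb covariate 5 for CreTM. With a library left out these counts were 64 to 73, 0 to 1 and 0 to 13. The count over 5 groups was 48 to 74. The median level per kilobase was 4031 with the union of exons, with which 5 of the 10 highest members were shared.

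Libraries of 4MHFW and 4MHFA share 5 title numbers. With the title number as a replicate block, 0 members passed and the median was -0.01. Same-numbered libraries did not deviate together (correlations of -0.24 to 0.14, over 0.1 for 2 of 5), so the numbers were not read as pairs. Depth limits Rps27 and Rpl34 most, at 5.09 and 5.54.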
